A study of Mus musculus with 6 samples.

Results

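Intermediate filament and nuclear lamina genes were followed in satellite cells, the stem cells that repair skeletal muscle in the mouse. The 9 genes were Krt18, Krt8 and Krt19 (keratins), Vim (vimentin), Nes (nestin), Synm (synemin), Lmna and Lmnb1 (lamins) and Plec (plectin), taken by symbol, and all 9 were among the 24067 symbols listed for both cell states. Polyadenylated RNA was sequenced from 4 groups of 1 library each. These were activated satellite cells (ASC, 36 h in culture) labelled as Yy1 iKo (iKO here), ASC labelled Wt (WT here), freshly isolated satellite cells (FISC) labelled Yy1 iKo, and FISC labelled Wt. The labels name neither the allele and driver behind the knockout, nor the age or number of animals, and 1 YY1 immunoprecipitation with its input came from ASC labelled C57. The set was chosen by gene family and with the FPKM values of these same 4 libraries in view, in which Krt18 was already known to stand among the highest ASC ratios, so the values below are a description. With 1 library per group, no difference has a replicate check and no test was possible.

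Intermediate filaments are rope-like polymers that give cells mechanical strength. Keratins assemble as pairs of a type I chain (Krt18, Krt19) with a type II chain (Krt8) and are typical of epithelia, whereas vimentin forms the filaments of mesenchymal cells and of muscle precursors. Nestin marks progenitors of nerve and muscle and assembles with vimentin, synemin joins vimentin or desmin filaments, and plectin is a giant linker that ties filaments to each other, to actin and to adhesion sites. Lamins line the inner nuclear membrane: A-type lamins from Lmna are abundant in stiff, differentiated tissue, and B-type lamins such as Lmnb1 are made by nearly all cells.

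Expression was given as FPKM, a count of sequenced fragments divided by transcript length and by library size, which allows levels of different genes to be compared per length. The Yy1 transcript stood at 2.03 FPKM in the ASC iKO library against 55.2 FPKM in ASC WT, and at 20.1 FPKM in FISC iKO against 51.0 FPKM in FISC WT. Between 10657 and 10947 genes reached 1 FPKM in a library. Total depth is unknown. The steps of low values give the relative library size by which FPKM was divided, which may hold a scaling factor as well as depth. It was 0.666 for ASC iKO relative to ASC WT and 1.00 for FISC iKO relative to FISC WT. Of 8 satellite cell markers, 7 reached 1 FPKM in ASC iKO, where Chrdl2 stood at 0.732 FPKM, and 8 did in each other library. By the 2-fold rule given below, Pax7 and Vcam1 were lower in ASC iKO, when 8.26% of all genes were. With both ASC libraries scaled to equal FPKM sums, an alternative also given below, 6 of the 8 were lower, when 2435 of 11215 genes were. These were Pax7, Myf5, Cdh15, Itga7, Vcam1 and Chrdl2, and the list's median log2 ratio was −1.06, against −0.48 over all genes. Pax7 stood at 6.19 FPKM in ASC iKO, 28.3 in ASC WT, 78.3 in FISC iKO and 61.8 in FISC WT. Myod1 stood between 411 and 698 FPKM.

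**Figure D1:**
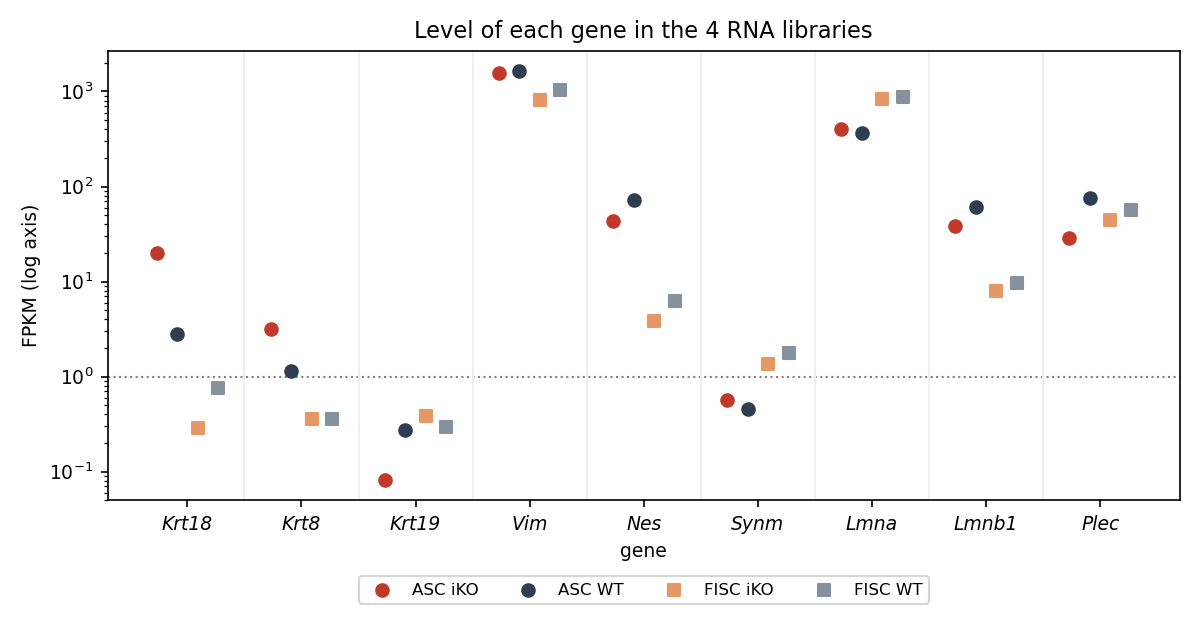
FPKM (log axis) of the 9 genes in the 4 RNA libraries, 1 point per library; the dotted line marks 1 FPKM. Vim lies at or above 815 FPKM and Lmna at or above 370 FPKM in each library, Krt19 and Synm lie under 2 FPKM in each, and Krt18 spans from 0.285 to 20.2 FPKM.

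The keratin pair Krt18 and Krt8 stood highest in the activated iKO library. Krt18, the type I chain, was at 20.2 FPKM in ASC iKO, 2.81 in ASC WT, 0.285 in FISC iKO and 0.768 in FISC WT. Krt8, its type II partner, was at 3.21 FPKM in ASC iKO, 1.14 in ASC WT, 0.357 in FISC iKO and 0.359 in FISC WT. Both genes thus lay under 1 FPKM in freshly isolated cells of either genotype and above it in both ASC libraries. Krt19, a type I chain of simple epithelia, did not follow them, at 0.0820 FPKM in ASC iKO, 0.276 in ASC WT, 0.389 in FISC iKO and 0.295 in FISC WT.

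Krt18 and Krt8 are neighbours on chromosome 15. In the tables' build (mm9), Krt8 spans chr15:101827142-101834773 and Krt18 spans chr15:101858647-101862457, a gap of 23.9 kb with no other listed symbol. The 250 bases before the annotated starts of both genes are shown because the pair stood highest in the same library, and those of Nes because it lay on the other side of 0. They were read from RefSeq (GRCm38.p6), whose promoter table held 6 of the 9 genes, and each is written 5′ to 3′ on the gene's strand. The Krt18 sequence is chr15:102027966-102028215 on the plus strand, the Krt8 sequence chr15:102004343-102004592 on the minus strand and the Nes sequence chr3:87970843-87971092 on the plus strand, so the 2 keratin genes are transcribed away from each other. Capitals mark TATAA, a core of the TATA box.
Krt18: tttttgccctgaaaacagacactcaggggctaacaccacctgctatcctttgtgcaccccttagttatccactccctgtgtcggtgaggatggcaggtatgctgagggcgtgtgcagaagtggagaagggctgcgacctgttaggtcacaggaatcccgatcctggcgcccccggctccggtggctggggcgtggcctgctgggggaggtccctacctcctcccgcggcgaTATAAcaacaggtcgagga
Krt8: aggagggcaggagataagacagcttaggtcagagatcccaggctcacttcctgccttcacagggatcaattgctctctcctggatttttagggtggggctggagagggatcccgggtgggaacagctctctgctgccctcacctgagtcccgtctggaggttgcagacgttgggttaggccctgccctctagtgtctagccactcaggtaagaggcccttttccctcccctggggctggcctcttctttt
Nes: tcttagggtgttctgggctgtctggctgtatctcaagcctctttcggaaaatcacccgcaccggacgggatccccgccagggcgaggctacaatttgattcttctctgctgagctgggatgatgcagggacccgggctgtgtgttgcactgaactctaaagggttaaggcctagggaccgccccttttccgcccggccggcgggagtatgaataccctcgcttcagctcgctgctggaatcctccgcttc
The YY1 core AANATGGC was found on neither strand in any of the 7 windows held for the 6 genes other than Krt19, Lmnb1 and Plec, and it occurs in 3.91% of all 32851 windows of this length. TATAA, a motif chosen after the sequences were seen, starts 19 bases before the Krt18 start. It occurred on either strand in 2 of the 7 windows, those of Krt18 and Vim, and in 22.8% of all windows.

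To compare genotypes, 1 was added to each FPKM and the log2 ratio of iKO over WT was taken. A gene counted as measured when either library of the pair held 1 FPKM or more. A gene was called higher or lower when this ratio passed 2-fold, a rule of size. The added 1 understates the ratio of low genes. In ASC, 7 of the 9 genes passed the filter on low values. Of these, Krt18 was higher, Plec was lower and 5 lay within 2-fold, when 17.0% of the 11215 genes measured passed 2-fold in either direction (8.74% higher and 8.26% lower, or 980 and 926 genes). Upper-quartile scaling gave 594 higher and 1259 lower. The ratios within a state used FPKM as deposited, although without small RNA symbols the FPKM sum was 728191 in ASC iKO and 492109 in ASC WT. Scaling both to the same sum, an alternative added after the values were seen, moved the median of all ASC genes to −0.48 and gave 171 higher and 2435 lower. It put 4 of the 7 past 2-fold, Krt18 (1.94) as higher and Plec (−1.90), Nes (−1.29) and Lmnb1 (−1.20) as lower, so ASC directions are relative to the median of all genes. As deposited, the 7 had a median of −0.08, against −0.0025 over all genes measured. In FISC 6 genes passed the filter and none was past 2-fold, when 1.40% of 11229 genes passed it (0.677% higher and 0.721% lower). All 6 lay below 0 with a median of −0.28, against −0.0027 over all genes measured.

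**Figure D2:**
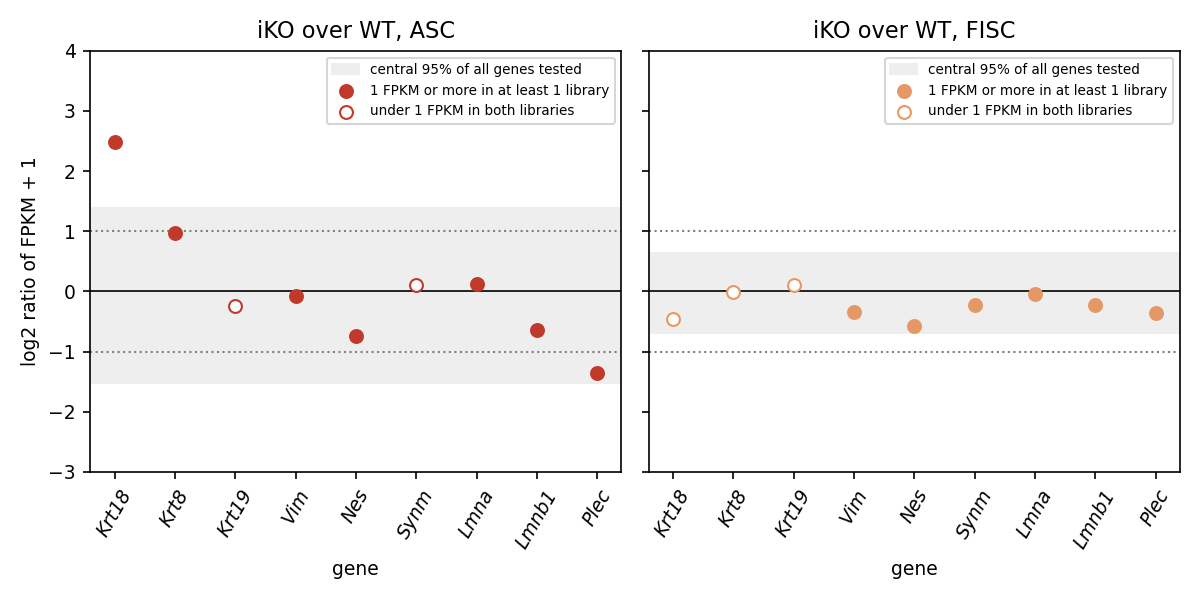
Log2 ratio of FPKM + 1, iKO over WT, of the 9 genes in ASC (left) and FISC (right). Filled points had at least 1 FPKM in at least 1 library of the pair, open points did not, dotted lines mark 2-fold and the grey band holds the central 95% of all genes measured. Krt18 at 2.48 lies above the ASC band, and all filled FISC points lie between −0.57 and −0.05.

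Krt18 rose in the activated iKO library, at 20.2 FPKM in iKO against 2.81 FPKM in WT, a log2 ratio of 2.48 and 5.57-fold with 1 added. Without the added 1 the ratio was 7.20. With the relative library size of 0.666 given above, this corresponds to 4.79 iKO reads per WT read. Whether the iKO library was the shallower is not known. Krt8 stood just inside 2-fold, at 3.21 FPKM in iKO and 1.14 FPKM in WT (log2 ratio 0.98). With 0.1 added in place of 1 its log2 ratio was 1.42, past 2-fold. RefSeq lists a pseudogene of Krt8, for which neither table has an entry, and the sources used here do not say how reads shared with it were assigned. Within the library, Krt18 exceeded Krt8 by a ratio of 6.30 in ASC iKO, 2.47 in ASC WT and 2.14 in FISC WT, and the ratio was 0.800 in FISC iKO, where both genes are under 1 FPKM.

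Ratios in ASC moved with the length of the listed locus across all genes, and short loci stood higher in the iKO library. The 1122 genes in the shortest decile, with a median of 2.81 kb, had a median log2 ratio of 0.67, and those in the longest, at 184 kb, a median of −0.48. Krt18 is short, at 3.81 kb. It lay 1.81 above the median of its own decile and above 99.5% of the genes in it. Krt8, at 7.63 kb in decile 2, lay 0.59 above its decile median of 0.39, above 83.6% of that decile. The part of locus length in these values was not tested.

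**Figure D3:**
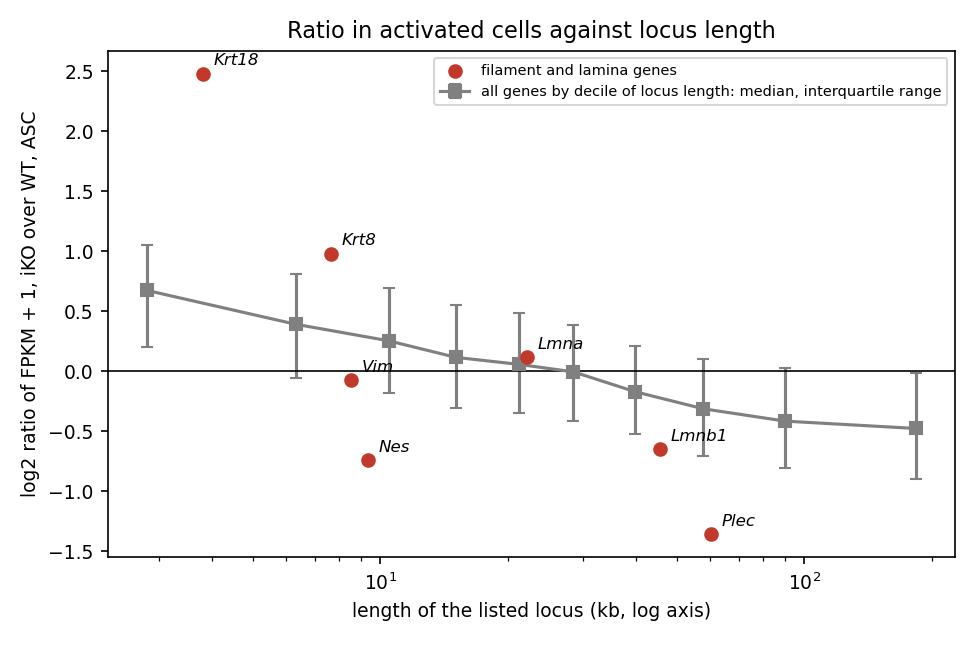
Log2 ratio of FPKM + 1, iKO over WT in ASC, against the length of the listed locus (kb, log axis). Grey squares and bars give the median and interquartile range of all genes by decile of length, and red points the 7 filament and lamina genes that passed the filter. Krt18 at 2.48 lies above the bar of its decile, Nes at −0.74 and Plec at −1.36 lie below the bars of theirs.

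Markers of other cells that make keratins, and of immune cells, were low but not equal in the activated pair. Of 8 epithelial markers, Krt7 among them, 2 passed the filter in ASC and 1 was higher by 2-fold, when 8.74% of all genes were: Cldn4, a tight junction protein, stood at 8.26 FPKM in iKO and 2.87 FPKM in WT. The summed level of the list was 9.68 FPKM in ASC iKO and 4.10 in ASC WT, and 0.642 in FISC iKO and 0.882 in FISC WT. Krt5 and Krt14, the keratins of basal epithelium, and the epithelial regulators Esrp1 and Grhl2 were listed at 0 in ASC iKO, where Epcam stood at 0.157 FPKM and Cdh1, E-cadherin, at 0.141 FPKM. Of 5 mesothelial markers only Msln, mesothelin, reached 1 FPKM (4.54 in ASC iKO and 2.89 in ASC WT), and Upk3b, Wt1 and Upk1b were listed at 0 in all 4 libraries. Immune markers summed to 16.9 FPKM in ASC iKO and 4.50 in ASC WT. Of the 7, 3 passed the filter in ASC, with a median log2 ratio of 1.38. Cd14 and Cd68 were higher by 2-fold, when 8.74% of all genes were. Ptprc, which marks all leukocytes, was listed at 0 in both ASC libraries. With equal FPKM sums no epithelial or immune marker was past 2-fold. The part of such cells in the Krt18 value was not tested. In bulk libraries, fewer or more cells of a type and less or more RNA per cell cannot be told apart.

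The rest of the keratin family was mostly silent. Of 52 Krt symbols in both tables, 30 were listed at 0 in all 4 libraries and 6 reached 1 FPKM in any. Beside Krt18 and Krt8 these were Krt7, a type II chain of simple epithelia (1.12 FPKM in ASC iKO and 0.328 in ASC WT), Krt10, known from upper epidermis (3.04 and 1.76 FPKM in ASC iKO and WT), Krt80 and, noted after its values were seen, Krt76, which was listed at 0 in both ASC libraries. Krt80, a type II chain, fell with a log2 ratio of −1.34, at 2.098 FPKM in ASC iKO and 6.82 FPKM in ASC WT, so that keratins past 2-fold in ASC lay on both sides.

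Vimentin made up nearly all of the message of the cytoplasmic filament genes among the 9 in each library. Des, which encodes desmin, is not among the 9. It stood at 153 FPKM in ASC iKO, 163 in ASC WT, 576 in FISC iKO and 615 in FISC WT, and is left out of the shares below. Vim (chr2:13495938-13504453, mm9) stood at 1549 FPKM in ASC iKO, 1634 in ASC WT, 815 in FISC iKO and 1031 in FISC WT. Of the summed FPKM of the 3 keratins, Vim, Nes and Synm, Vim held 95.8% in ASC iKO, 95.5% in ASC WT, 99.2% in FISC iKO and 99.1% in FISC WT. Its iKO over WT log2 ratio was −0.08 in ASC and −0.34 in FISC, both within 2-fold. With equal FPKM sums it was −0.64 in ASC and −0.30 in FISC, still within 2-fold. Vimentin is also made by fibroblasts and endothelial cells: the 6 fibroblast markers summed to 330 FPKM in FISC iKO and 346 in FISC WT, and the 6 endothelial markers to 7.48 FPKM in FISC iKO and 9.47 in FISC WT. In ASC the same sums were 19.0 and 40.5 FPKM (iKO and WT) for fibroblast markers and 1.49 and 2.26 FPKM for endothelial markers. Their part in the Vim values was not tested.

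Nestin had log2 ratios below 0 in both states, within 2-fold as deposited and past it in ASC with equal FPKM sums (−1.29). Nes (chr3:87775015-87784373) was at 43.1 FPKM in ASC iKO, 72.7 in ASC WT, 3.89 in FISC iKO and 6.25 in FISC WT. The log2 ratio of iKO over WT was −0.74 in ASC and −0.57 in FISC, the lowest of the 6 genes measured in FISC. Its locus of 9.36 kb falls in the third decile of length, where the ASC median was 0.25, and only 6.15% of that decile lay lower. Relative to Vim in the same library, the FPKM ratio of Nes was 0.0278 in ASC iKO, 0.0445 in ASC WT, 0.00477 in FISC iKO and 0.00606 in FISC WT. Nestin is also made by Schwann cells and pericytes, whose 6 markers each summed to 2.33 and 0.832 FPKM in ASC iKO and to 2.88 and 1.69 FPKM in ASC WT. In FISC the Schwann cell and pericyte sums were 16.4 and 24.4 FPKM in iKO and 17.2 and 24.3 FPKM in WT. Their part in the Nes values was not tested.

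Synemin was near the limit of what was measured. Synm (chr7:74875047-74904628) stood at 0.573 FPKM in ASC iKO, 0.454 in ASC WT, 1.37 in FISC iKO and 1.76 in FISC WT, so it passed the filter in FISC alone, with a log2 ratio of −0.22. Both FISC libraries lay above both ASC libraries. Desmin, the muscle filament protein with which synemin assembles, is encoded by Des, which stood at 153 FPKM in ASC iKO, 163 in ASC WT, 576 in FISC iKO and 615 in FISC WT. The ratio of Vim to Des was 10.1 and 10.02 in ASC iKO and WT, and 1.41 and 1.68 in FISC iKO and WT.

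Of the other intermediate filament genes, 6 of 26 passed the filter in ASC and 2 of them, Sync and Krt80, were lower in iKO, when 8.26% of all genes were. Sync encodes syncoilin, a muscle filament protein that binds desmin, and fell with a log2 ratio of −2.35, at 2.49 FPKM in ASC iKO and 16.8 FPKM in ASC WT. The list had a median of −0.52 in ASC, against −0.0025 over all genes. In FISC 5 passed the filter and none was past 2-fold, when 1.40% of all genes were, with Sync at 4.55 FPKM in iKO and 6.15 FPKM in WT.

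The lamins differed mainly between states. Lmna (chr3:88285070-88307274) stood at 401 FPKM in ASC iKO, 370 in ASC WT, 835 in FISC iKO and 865 in FISC WT. Lmnb1 (chromosome 18, 56867467 to 56913079) stood at 38.9 FPKM in ASC iKO, 61.5 in ASC WT, 8.03 in FISC iKO and 9.55 in FISC WT. Every FISC value of Lmna lay above both ASC values, and every FISC value of Lmnb1 lay below both. The FPKM ratio of Lmna to Lmnb1 within a library was therefore 10.3 in ASC iKO and 6.01 in ASC WT, against 104 in FISC iKO and 90.5 in FISC WT. No scaling between libraries changes this ratio.

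**Figure D4:**
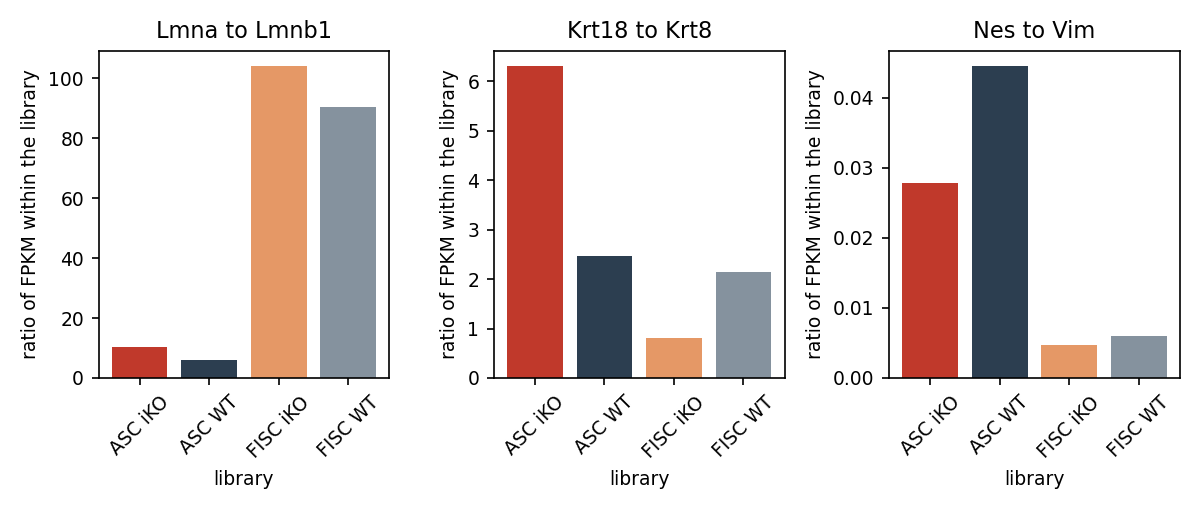
Ratio of FPKM of Lmna to Lmnb1, Krt18 to Krt8 and Nes to Vim within each of the 4 libraries, 1 bar per library. Lmna to Lmnb1 stands at 10.3 and 6.01 in the ASC bars and at 104 and 90.5 in the FISC bars, and Krt18 to Krt8 is tallest in ASC iKO at 6.30.

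Between genotypes both lamins lay within 2-fold as deposited, and with equal FPKM sums Lmna stood at −0.45 and Lmnb1 past 2-fold at −1.20 in ASC. For Lmna the log2 ratio of iKO over WT was 0.12 in ASC and −0.05 in FISC. For Lmnb1 it was −0.65 in ASC and −0.22 in FISC, and 19.3% of genes in its length decile had a lower ASC ratio. Lmnb2, the other B-type lamin, stood at 25.6 FPKM in ASC iKO, 50.0 in ASC WT, 10.4 in FISC iKO and 15.3 in FISC WT, within 2-fold in both states as deposited (log2 ratios −0.94 and −0.51) and past it in ASC with equal sums. Of 8 division markers, 4 (Mki67, Top2a, Ccnb1 and Mcm5) were lower in ASC iKO, when 8.26% of all genes were, with Mki67 at 11.2 FPKM in iKO and 26.4 FPKM in WT. Pcna, the replication clamp, stood the other way at 462 and 404 FPKM in ASC iKO and WT. The summed level of the list was 612 FPKM in ASC iKO, 704 in ASC WT, 171 in FISC iKO and 155 in FISC WT. Pcna made up most of each sum, standing at 166 FPKM in FISC iKO and 147 in FISC WT, so the sums say little about the other markers. With equal FPKM sums 6 of the 8 markers were lower in ASC, when 2435 of 11215 genes were. Their list had a median log2 ratio of −1.41, against −0.48 over all genes. The part of cell division in the Lmnb1 values was not tested.

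Partners of the lamina were all measured. Of 13 genes, 2 were lower and none higher in ASC iKO, when 17.0% of all genes were past 2-fold, and none was past it in FISC, when 1.40% of all genes were, with medians of −0.20 in ASC and 0.05 in FISC. The 2 were Syne3 and Syne2, nesprins that link the nucleus to the cytoskeleton, at 1.62 and 1.12 FPKM in ASC iKO against 5.91 and 3.50 FPKM in ASC WT. Highest were Lemd2, an inner nuclear membrane protein (34.0 FPKM in ASC iKO and 17.9 in ASC WT, log2 ratio 0.89), and Banf1, which tethers chromatin to that membrane (526 and 314 FPKM in ASC iKO and WT, log2 ratio 0.74). The 5 enzymes that process prenylated lamins all lay within 2-fold between genotypes in both states. Among them Zmpste24, the protease that cuts prelamin A, stood at 36.8 FPKM in ASC iKO, 43.5 in ASC WT, 8.58 in FISC iKO and 9.11 in FISC WT.

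Plectin was the only gene of the 9 called lower in activated iKO cells as deposited. Nes, Lmnb1 and Vim also lay below 0, within 2-fold. With equal FPKM sums Nes (−1.29) and Lmnb1 (−1.20) were called lower too. Plec (chr15:76001404-76061808) stood at 28.7 FPKM in ASC iKO, 75.3 in ASC WT, 44.2 in FISC iKO and 57.2 in FISC WT. The ASC iKO value was the lowest of the 4 and the ASC WT value the highest. The log2 ratio of iKO over WT was −1.36 in ASC, 2.57-fold lower with 1 added, and −0.37 in FISC. At 60.4 kb its locus lies in decile 8, whose ASC median was −0.31, and Plec lay 1.05 below that median with 5.88% of the decile lower. The listed locus of Plec overlaps that of Mir1942, a microRNA gene. Relative to Vim the FPKM ratio of Plec was 0.0185 in ASC iKO, against 0.0461 in ASC WT, 0.0542 in FISC iKO and 0.0555 in FISC WT.

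Other linker genes were read beside it. Of 9 plakin and desmosome genes, 5 passed the filter in ASC, all with ratios below 0, and 2 were lower by 2-fold, when 8.26% of all genes were. Both, Dst and Macf1, lie in the decile of longest loci, where the ASC median was −0.48 and 19.5% of genes were lower. Dst, dystonin, a plakin that links filaments to microtubules, stood at 7.95 FPKM in ASC iKO and 28.1 FPKM in ASC WT (log2 ratio −1.70). Macf1, a plakin that joins actin and microtubules, stood at 8.16 FPKM in ASC iKO and 23.7 FPKM in ASC WT (log2 ratio −1.43). In FISC 6 passed the filter and none was past 2-fold, when 1.40% of all genes were. The list's median was −0.32 in ASC and −0.31 in FISC. Plakophilin 2 (Pkp2) and plakophilin 4 (Pkp4), desmosomal proteins, lay closest to 0 in ASC, with log2 ratios of −0.17 and −0.23.

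Of 11 actin and tubulin genes, the other filament systems, all passed the filter in ASC and 10 in FISC, with medians of −0.02 and −0.10. None was past 2-fold in either state, when 17.0% of all genes in ASC and 1.40% in FISC were, and with equal FPKM sums Tubb3 and Tubb2b were lower in ASC. Actb stood at 1932 FPKM in ASC iKO and 1819 in ASC WT. The lowest ASC ratio was that of Tubb3, a tubulin typical of neurons, at 8.60 FPKM in iKO and 13.4 FPKM in WT (log2 ratio −0.58), followed by Tubb2b at −0.47. The highest were Tubb2a at 0.43 and Tubb4b at 0.38. Chaperones of intermediate filaments were within 2-fold as well, with Cryab, alphaB-crystallin, at 133 FPKM in ASC iKO and 67.5 FPKM in ASC WT (log2 ratio 0.97).

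Activation was described by setting ASC over FISC within a genotype, after both libraries had been scaled to the same FPKM sum without small RNA symbols. Normalization may have been separate for the 2 tables, 1 per state, and the 4 comparisons share their libraries, so these values are side-by-side descriptions. The median over all genes was −0.04 in iKO and 0.50 in WT. Median-of-ratios scaling moved these to −0.05 and −0.01. Of the 9 genes, 8 passed the filter in each genotype, and 4 were higher and 2 lower in iKO, when 22.8% of 11797 genes were higher and 27.0% lower (49.8% in all). In WT 3 were higher and 1 lower, when 34.1% of 11816 genes were higher and 16.1% lower (50.2% in all). Over all WT genes this was 4031 higher and 1898 lower, and the split depended on scaling, at 2655 and 2504 with upper-quartile and 2289 and 2737 with median-of-ratios scaling. Over all iKO genes it was 2693 higher and 3180 lower, and 3980 and 2427 with no scaling between the tables. The division markers, by comparison, had a median of 3.15 in iKO and 4.22 in WT.

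Nes and Lmnb1 were higher, and Lmna lower, after activation in both genotypes. Nes had a log2 ratio of 2.69 in iKO and 3.45 in WT, and Lmnb1 one of 1.66 in iKO and 2.68 in WT. For Lmna the log2 ratio was −1.55 in iKO and −1.11 in WT. With no scaling between the tables Lmna stood at −1.06 in iKO and −1.22 in WT, so the order of the genotypes depended on scaling. Nes then stood at 3.17 in iKO and 3.35 in WT, and Lmnb1 at 2.14 in iKO and 2.57 in WT. Krt18 stood at 3.58 in iKO and 1.19 in WT, and Krt8 at 1.27 in iKO and 0.71 in WT, both counted through their ASC libraries alone. Vim lay within 2-fold at 0.43 in iKO and 0.77 in WT, in the other order at 0.93 and 0.66 with no scaling between the tables. Synm, counted through its FISC libraries alone, lay within 2-fold at −0.75 in iKO and −0.89 in WT. Plec stood at −1.08 in iKO, within 2-fold at −0.60 with no scaling between the tables, and at 0.50 in WT, and the WT value equals the median of all WT genes to 2 decimals. Upper-quartile or median-of-ratios scaling put the WT value of Krt18 within 2-fold, at 0.87 and 0.77, and that of Synm past it, at −1.02 and −1.06.

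**Figure D5:**
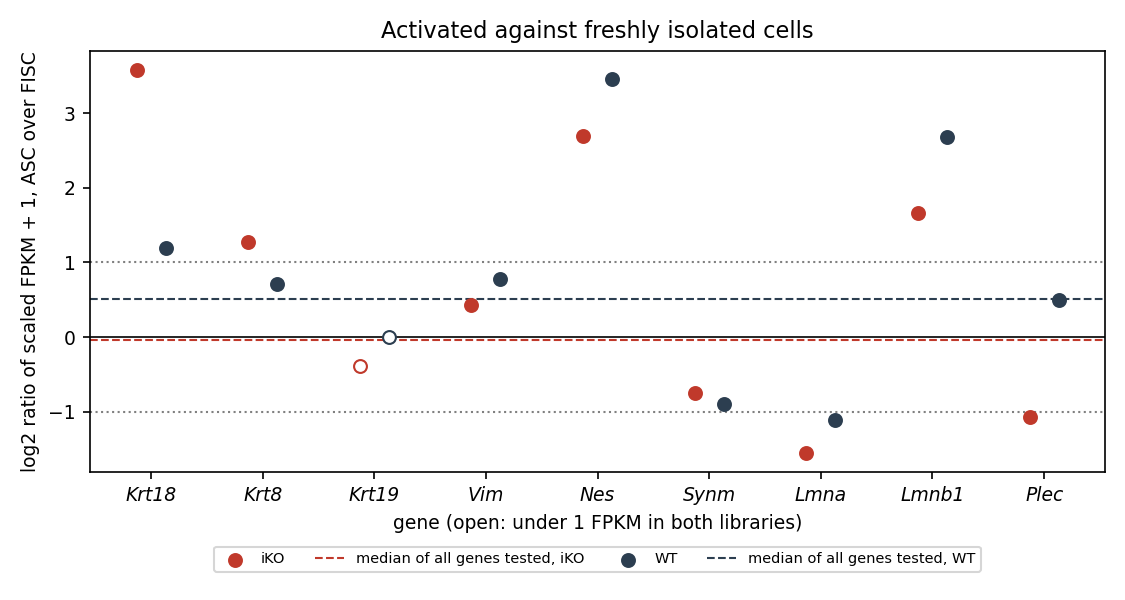
Log2 ratio of scaled FPKM + 1, ASC over FISC, of the 9 genes in iKO (red) and WT (dark) cells; open points were under 1 FPKM in both libraries, dashed lines give the median of all genes measured and dotted lines mark 2-fold. Nes stands at 2.69 and 3.45, Lmna at −1.55 and −1.11, and Plec at −1.08 in iKO and 0.50 in WT.

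Other filament and lamina genes also differed between states. Desmin was lower after activation in both genotypes, with log2 ratios of −2.40 in iKO and −1.80 in WT. Ppl, periplakin, had ratios of −3.39 in iKO and −3.63 in WT, and Jup, plakoglobin, −2.97 in iKO and −1.88 in WT. Pkp2 was higher, at 1.83 in iKO and 2.30 in WT. Of the lamina partners, Tmpo, which encodes the lamin-binding LAP2 proteins, and Banf1 were higher in both genotypes, and Sun2, an inner membrane protein of the nesprin bridge, was lower in both (−2.21 in iKO and −1.73 in WT). Hspb1, a small heat shock protein, stood at 109 FPKM in ASC iKO, 79.8 in ASC WT, 2752 in FISC iKO and 2227 in FISC WT.

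No deposited YY1 peak lay near the 9 genes. A gene was given a peak when the summit fell inside its listed locus or within 2 kb of either end, which held for 0 of the 9 genes and for 9.97% of 10820 genes at 1 FPKM or more in ASC WT. Widening the window to 10 kb still gave 0 of 9, against 12.7% of genes. With the 2 kb window and only the 171 peaks at −log10 q of 5 or more, it was 0 of 9, against 2.00% of genes. The nearest of the 2031 peaks lay 55.9 kb from Lmna, at chr3:88229063-88229212 (mm9), with the authors' fold of 7.91 and −log10 q of 7.42. For the other 8 genes the nearest summit was between 106 kb (Synm) and 445 kb (Nes) away. The authors' −log10 q of the nearest peak was 0.25 for Synm and Vim, 0.33 for Plec and 1.07 for Krt19 and Lmnb1. It was 4.09 for Krt18 and Krt8 and 7.42 for Nes. Of the 42 genes of the wider pathway lists at 1 FPKM or more in ASC WT, 4 had a peak by the 2 kb rule over all peaks, Dst, Lemd2, Lemd3 and Syne1. The authors' −log10 q was 0.33 for the peak in Dst, 1.07 in Syne1 and 1.14 in Lemd3, so that of the 4 only Lemd2 had one at 5 or more. That of Lemd2 lay 0.158 kb from an end of its locus, at chr17:27341415-27341627, with the authors' fold of 18.2 and −log10 q of 36.3. The list comes from 1 immunoprecipitation and 1 input, so a peak's absence has no replicate.

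The genes whose pattern was closest to each of the 9 were sought by the Euclidean distance of the 4 log2(FPKM + 1) values, centred on their mean, among 9270 genes. Genes with a wider range over the libraries tend to lie farther from their neighbours, and no limit for a near neighbour was set. Krt18 was closest to Serf1 (129 FPKM in ASC iKO, 28.4 in ASC WT, 9.19 in FISC iKO and 9.75 in FISC WT) at a distance of 0.36. Next were Sdhaf1 at 0.57 and Mrps21 at 0.59. Nes was closest to Adamts14 (0.18), Aurka (0.25) and Ccnd1 (0.25), and Lmnb1 to Alg8 (0.05), Gsg2 (0.10) and Troap (0.12). Plec was closest to Papolg (0.05), Cpne1 (0.07) and Pard3 (0.13), Vim to Sumf1 (0.06), Fundc2 (0.06) and Dnajc30 (0.07), and Lmna to Fbxo34 (0.07), Ubxn4 (0.08) and Cyth1 (0.08). For the low genes, whose values near 0 leave little pattern, the closest were Commd6 (0.03), BC031181 (0.05) and Gpatch11 (0.06) for Krt8, Rassf3 (0.04), Nsdhl (0.05) and Mynn (0.06) for Krt19, and Eif1a (0.07), Acat2 (0.09) and Shf (0.09) for Synm. Among the 9 themselves, Synm and Lmna were nearest (0.40) and Nes and Lmna farthest apart (4.46), over 4 libraries that also share these distances' scaling.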

How the data were processed

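RNA levels were used from 4 libraries, 1 per group, and a YY1 peak list from 1 immunoprecipitation with 1 input. FPKM values were made and deposited by the authors, 1 table per state, and carry that unit per the file headers. Per the submitters' processing notes, mm9, MACS2 2.1.0, Cufflinks 2.2.1 and TopHat2 were used, with no steps assigned. The sources used here name no annotation, strand setting or scaling. Gene-level values do not separate isoforms, and reads from overlapping or near-identical genes cannot be told apart. In the deposited peak list, the score, the fold (a ratio over local background), the −log10 p and the −log10 q are the authors' own. Loci were read as starting at 0 and are printed from 1.

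Ratios, a pseudocount of 1, a filter of 1 FPKM and a 2-fold call were computed in Python 3.11.15 with pandas 2.3.3 and numpy 2.4.6, drawn with matplotlib 3.10.9 and checked on simulated data. Activation ratios used equal FPKM sums without small RNA symbols. Alternatives covered pseudocounts of 0.1 and 5, other filters, upper-quartile and median-of-ratios scaling, subtraction of the locus-length decile median, and other peak windows. Within-library ratios and equal FPKM sums for iKO over WT were added after the values were seen. The rule for named genes took all 9, the highest and lowest 2 of each list in each comparison, of which a part is printed, and the 3 closest in pattern with at least 5 FPKM in at least 1 library. List genes past 2-fold or with a peak, and markers at or near 0, are named beside them. Genes and lists were chosen with earlier results of these data known. Nothing establishes separate animals behind the libraries.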

Additional observations from a re-analysis of the deposited data

Results flagged for a closer look

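The iKO over WT ratio of 5 genes had opposite signs in the 2 states, each with 1 library per group, and the difference was not tested. The share of all genes with opposite signs was not counted, so the 5 cannot be set against a background. The median over all genes measured was −0.0025 in ASC and −0.0027 in FISC, so the sign of a ratio close to 0 says little. The FISC ratio of Krt8 equals the FISC median as printed. For Krt18 the log2 ratio was 2.48 in ASC and −0.46 in FISC, a difference of 2.94, with both FISC values under 1 FPKM. Krt8 differed by 0.98 (0.98 in ASC and −0.0027 in FISC), Synm by 0.34 (0.11 and −0.22) and Lmna by 0.17 (0.12 and −0.05). With equal FPKM sums Krt8, Synm and Lmna each had the same sign in both states, Lmna at −0.45 in ASC and −0.01 in FISC. Krt19 differed by −0.34 (−0.24 in ASC and 0.10 in FISC) and was under 1 FPKM in all 4 libraries. The 4 differences other than that of Krt18 come from ratios within 2-fold in both states.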

How the results depend on the processing

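No called ratio of the 9 genes changed sign under any alternative, and the counts past 2-fold stayed within 1.5 times except in ASC with equal FPKM sums, where it was 4 against 2 as Nes and Lmnb1 joined: 0 in FISC throughout, 2 to 4 in ASC, 3 to 6 in WT activation and 4 to 7 in iKO activation. Of 29 ratios, 26 kept their sign in every alternative; the others were Lmna in both states (lowest −0.45 in ASC, highest 0.0014 in FISC) and Plec in WT activation (lowest −0.08), all within 2-fold. Krt18 in ASC ranged from 1.69 (pseudocount of 5) to 2.80 and Plec from −1.90 to −1.05. In iKO activation Krt8 and Plec came within 2-fold with a pseudocount of 5 (0.44 and −0.95) and after subtraction of the decile median (0.85 and −0.69), and Plec also with no scaling between the tables (−0.60). In WT activation Krt18 came within 2-fold with a pseudocount of 5 (0.48) and after subtraction of the decile median (0.70), beside the 2 scalings given above. A filter of 5 FPKM left Krt18 out there. Equal FPKM sums gave list medians in ASC of −1.07 for other intermediate filament genes, −0.79 for plakins, −0.74 for lamina partners, −0.48 for lamin processing, −0.11 for chaperones and −0.58 for actin and tubulin, against −0.48 over all genes. Upper-quartile scaling moved the ASC median of all genes to −0.15 and the genes past 2-fold to 594 higher and 1259 lower, from 980 and 926, and a pseudocount of 5 gave 576 and 306. In FISC, pseudocounts of 0.1 and 5 gave 411 and 61 genes past 2-fold, against 157. A pseudocount of 5 gave 2634 higher and 1130 lower in WT activation and 1755 and 1835 in iKO activation. Subtraction of the decile median gave 2309 and 2821 in WT activation. No paired analysis was possible because each group had 1 library. Values under 1 FPKM limit Krt19 and Synm, and Krt18 and Krt8 in FISC.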
